A study of Homo sapiens with 9 samples.

Results

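The 37 genes of the human mitochondrial genome were followed in MM.1S, a line of human myeloma cells, after 24 h without EGCG or with EGCG at 40 or 80 µM. EGCG (epigallocatechin gallate) is the main catechin of green tea, and the study asked how it leads myeloma cells into apoptosis. The genes were taken by symbol, every row of the count table whose symbol starts with MT-: 2 rRNAs, 13 mRNAs and 22 tRNAs, out of 60675 gene IDs. The groups were 0 µM (the control), 40 µM and 80 µM EGCG with 3 libraries each, all from the same line and all harvested at 24 h. The labels do not say whether the libraries came from separate cultures, so the p-values measure the spread between these libraries, which may be technical.

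The mitochondrial genome is a small circle that is transcribed from both strands into long precursors. The tRNAs lie between the rRNAs and mRNAs like punctuation, and cutting them out by RNase P and RNase Z frees the other transcripts. Most genes are on the heavy-strand precursor. The rRNA genes lie near its start, with MT-TF ahead of them, while MT-ND6 and a group of tRNAs come from the light-strand precursor. The rRNAs form the mitochondrial ribosome, which translates the mRNAs into core subunits of the respiratory chain and ATP synthase.

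The junctions at which the rRNAs are cut free from their neighbouring tRNAs are shown because the rRNAs carried the largest changes. They were read from the GENCODE release 29 transcripts (GRCh38, plus strand of chrM), with the tRNA bases in capitals. They cover chrM:633-677, chrM:1572-1616, chrM:1656-1700 and chrM:3200-3244, and the annotation puts no base between the genes at any of them.
MT-TF/MT-RNR1 junction: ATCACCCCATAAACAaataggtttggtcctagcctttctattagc
MT-RNR1/MT-TV junction: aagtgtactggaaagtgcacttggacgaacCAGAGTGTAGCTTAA
MT-TV/MT-RNR2 junction: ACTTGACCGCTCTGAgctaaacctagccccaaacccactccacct
MT-RNR2/MT-TL1 junction: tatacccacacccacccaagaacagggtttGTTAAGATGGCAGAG

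The tRNA genes that changed most are shown next, from the same source, each 5′ to 3′ on its own strand with the anticodon in capitals. MT-TF, the tRNA for phenylalanine, is at chrM:577-647 on the plus strand, directly before MT-RNR1. MT-TA (alanine, chrM:5587-5655), MT-TN (asparagine, chrM:5657-5729), MT-TC (cysteine, chrM:5761-5826) and MT-TY (tyrosine, chrM:5826-5891) form a cluster on the minus strand. MT-TE (glutamate, chrM:14674-14742, minus strand) and MT-TT (threonine, chrM:15888-15953, plus strand) flank MT-CYB.
MT-TF: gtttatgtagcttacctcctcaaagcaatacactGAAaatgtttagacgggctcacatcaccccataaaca
MT-TA: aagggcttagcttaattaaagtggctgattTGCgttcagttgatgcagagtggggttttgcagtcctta
MT-TN: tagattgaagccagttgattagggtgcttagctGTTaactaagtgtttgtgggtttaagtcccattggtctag
MT-TC: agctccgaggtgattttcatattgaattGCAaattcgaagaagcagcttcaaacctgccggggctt
MT-TY: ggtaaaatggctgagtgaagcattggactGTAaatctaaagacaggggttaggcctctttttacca
MT-TE: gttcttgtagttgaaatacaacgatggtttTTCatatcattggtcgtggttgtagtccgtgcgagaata
MT-TT: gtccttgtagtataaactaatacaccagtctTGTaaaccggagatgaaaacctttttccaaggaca

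The libraries held 12674490 to 16427343 counts, and all 37 genes passed the filter on low counts, as did 15982 genes in all. Plasma cell markers of the line, among them SDC1, IRF4 and XBP1, were present, with a summed level over 8 genes of 6195 to 6318 CPM in control libraries, 5720 to 5890 CPM at 40 µM and 5449 to 5757 CPM at 80 µM. CPM are counts per 1000000 counts of a library, after TMM scaling. By edgeR's quasi-likelihood test 2 of the 8 were higher and 2 lower at 80 µM against control (17.4% and 17.5% of all genes). At 40 µM against control 1 was higher and 0 lower (1.49% and 0.813% of all genes), so the sum does not show each marker. Markers of other cell types were low. The mature B cell list reached at most 23.1 CPM, nearly all of it from CR2. The T and NK cell list reached 5.28 CPM, with CD3D and NKG7 at 0, the monocyte list 0.892 CPM, and the stromal list 3.90 CPM, with COL1A2 and LUM at 0. The nuclear rRNA gene RNA5-8SN3 had 2 to 9 counts per library. CR2 and CD3E, the members of the B cell and T cell lists with enough counts to be tested, had log2 fold changes of -1.34 and -1.14 at 80 µM against control (adjusted p = 7.19e-05 and 0.00774, edgeR's quasi-likelihood test). Their part in the results on mitochondrial genes was not tested.

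The 3 classes of mitochondrial RNA moved differently with dose. The 2 rRNAs took 0.649, 0.731 and 0.719% of all counts in the control libraries, 1.28, 1.63 and 1.37% at 40 µM, and 4.65, 3.97 and 4.18% at 80 µM. The 3 doses did not overlap, and each dose was higher than the one before. The 13 mRNAs took 6.85, 7.49 and 7.67% in control libraries, 7.07, 9.80 and 8.26% at 40 µM, and 6.15, 6.10 and 6.24% at 80 µM. The 80 µM libraries were lower than all others and close together, while the 40 µM libraries spread widely and overlapped the control, with replicate 2 the highest. The 22 tRNA genes took 0.105, 0.112 and 0.126% in control libraries, 0.117, 0.0966 and 0.0982% at 40 µM, and 0.0588, 0.0568 and 0.0612% at 80 µM. Here too the 80 µM libraries were the lowest, and 40 µM and control overlapped.

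At 80 µM the rRNA share was 4.27 ± 0.349%, 6.10 times the control share of 0.699 ± 0.0444% (SD, n = 3 each). At 40 µM it was 1.43 ± 0.181%, 2.03 times the control. An exact permutation test of the spread between the 3 dose groups gave p = 0.00357 for the rRNA share, the smallest p that 3 groups of 3 allow, and 0.0125 after Benjamini-Hochberg adjustment over 7 such values. For the mRNA share the exact permutation p was 0.0179 (adjusted 0.0251), and for the tRNA share it was 0.0107 (adjusted 0.0187). A pairwise exact permutation test of 3 against 3 libraries cannot go below p = 0.1, two-sided. The mRNA result depended on which libraries were in the test: its exact permutation p was 0.0893, 0.1 and 0.0643 without 80 µM replicate 1, 2 or 3, and 0.0786 without control replicate 2 or without control replicate 3. It was 0.0536 with the plain counts of all other genes as the denominator, an alternative added after seeing the data, and 0.0464 with their TMM-effective size.

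The number of rRNA counts per mRNA count summarises this split within the mitochondrial genome and does not depend on library scaling. It was 0.0947, 0.0975 and 0.0937 in control libraries, 0.181, 0.166 and 0.166 at 40 µM, and 0.757, 0.651 and 0.671 at 80 µM. The groups were far apart relative to their own spread. The mean ratio at 80 µM was 0.693 ± 0.0564, 7.25 times that in the control at 0.0953 ± 0.00199 (SD, n = 3 each), and the exact permutation p over the 3 doses was 0.00357 (adjusted 0.0125). All 37 genes together took 8.15 ± 0.482% of counts in control libraries, 9.91 ± 1.54% at 40 µM and 10.5 ± 0.365% at 80 µM, and the rRNAs made up 8.58, 14.4 and 40.7% of those counts on average at the 3 doses in that order. In bulk RNA, a different number of mitochondria per cell and a different amount of RNA per mitochondrion cannot be told apart.

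**Figure D1:**
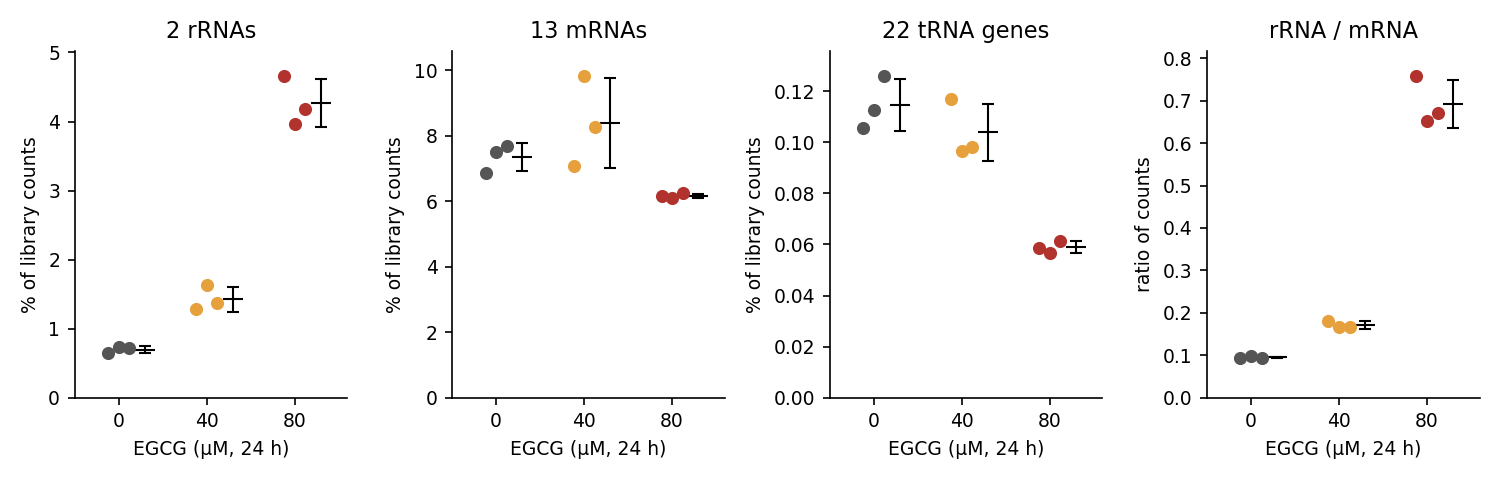
Share of all library counts (%) held by the 2 rRNAs, 13 mRNAs and 22 tRNA genes, and the ratio of rRNA to mRNA counts, at 0, 40 and 80 µM EGCG. Points are the 3 libraries of a dose and bars are mean ± SD. The rRNA share lies at 3.97 to 4.65% at 80 µM and at 0.649 to 0.731% in the control.

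Gene by gene, 17 of the 37 mitochondrial genes passed the test at 80 µM against the control, against a background of 34.9% of all genes tested. Of the 17, 3 rose (background 17.4%) and 14 fell (background 17.5%). At 40 µM against the control 2 of 37 passed, both higher (background 2.30% in either direction and 1.49% higher), and 0 were lower (background 0.813%). At an unadjusted p under 0.05, 8 were higher and 0 lower, and DESeq2 and limma-voom also called 0 lower. At 80 µM against 40 µM 21 passed (background 23.0%), of which 2 were higher (background 10.9%) and 19 lower (background 12.1%). Genes were called at an adjusted p under 0.05 by edgeR's quasi-likelihood test over all genes. The median log2 fold change over all genes was close to 0 in each comparison, the farthest being 0.0147 at 40 µM against control.

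MT-RNR1, the rRNA of the small mitochondrial ribosomal subunit (chrM:648-1601, plus strand), stood at 492, 517 and 554 CPM in control libraries, 958, 1176 and 960 CPM at 40 µM, and 4762, 4130 and 4550 CPM at 80 µM. Every 40 µM library was above every control library, and every 80 µM library was above every 40 µM library. The log2 fold change was 3.10 ± 0.12 (SE) at 80 µM against control, an 8.60-fold difference (adjusted p = 2.27e-07, edgeR's quasi-likelihood test). At 40 µM against control it was 0.99 ± 0.11 (adjusted p = 0.00169), and at 80 µM against 40 µM it was 2.12 ± 0.12 (adjusted p = 1.14e-05).

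MT-RNR2, the rRNA of the large subunit (chrM:1671-3229, plus strand), had 5828, 6626 and 7066 CPM in control libraries, 11920, 15910 and 12640 CPM at 40 µM, and 41990, 34510 and 36770 CPM at 80 µM. The doses again did not overlap. The log2 fold change was 2.54 ± 0.15 at 80 µM against control, a 5.80-fold difference (adjusted p = 2.64e-06, edgeR's quasi-likelihood test), 1.05 ± 0.14 at 40 µM against control (adjusted p = 0.00395) and 1.49 ± 0.14 at 80 µM against 40 µM (adjusted p = 0.000207). None of the 17 alternatives run, including leaving out each library, ended any of these calls for either rRNA.

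The 2 rRNAs did not change to the same extent. MT-RNR1 counts per MT-RNR2 count were 0.0845, 0.0780 and 0.0784 in control libraries, 0.0804, 0.0739 and 0.0760 at 40 µM, and 0.113, 0.120 and 0.124 at 80 µM. The 80 µM libraries lay above the others, and 40 µM overlapped the control. The mean at 80 µM was 1.48 times the control mean, with an exact permutation p of 0.0107 over the 3 doses (adjusted 0.0187 over the 7 values) that stayed between 0.00714 and 0.0214 when any library was left out. Per kilobase of gene, MT-RNR2 ranked at place 10 of the 37 genes in the control with 4174 ± 402 CPM per kb, at place 5 at 40 µM with 8650 ± 1365, and at place 1 at 80 µM with 24220 ± 2461 CPM per kb (SD, n = 3). MT-RNR1 ranked at place 21, 20 and 9, with 546 ± 32.5, 1081 ± 132 and 4697 ± 337 CPM per kb. These places order counts over annotated spans. The RNA selection is not stated, so they do not order the amounts of rRNA, mRNA and tRNA in the cells.

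Nuclear RNAs that mostly lack poly(A) tails (histone mRNAs, small nuclear RNAs and the like) were listed as a reference for RNA selection. Of these, the 23 genes in the table, with 4 at 0 in all libraries, summed to 168 to 210.1 CPM in control libraries, 80.95 to 222 CPM at 40 µM and 85.6 to 135 CPM at 80 µM. Of 9 with enough counts to be tested, the histone genes H2AC6 and H1-2 were called at 80 µM against control (background 34.9%). H2AC6 had 1.60 ± 0.31 and H1-2 had -1.15 ± 0.14 on the log2 scale (adjusted p = 0.00268 and 0.000221, edgeR's quasi-likelihood test). RN7SL1, the RNA of the signal recognition particle, was also called, at -1.03 to -1.02, in the 6 libraries alone (0.00235) and without 40 µM replicate 1 (0.00635) or 2 (0.0226), and the histone gene H1-4 at -1.46 without 80 µM replicate 3 (0.0438). At 40 µM against control 1 of the 9 was called by edgeR's quasi-likelihood test (background 2.30%). It was H1-2, lower at -1.0 ± 0.14 (adjusted p = 0.00552). At 80 µM against 40 µM 1 of the 9 was called (background 23.0%), H2AC6, higher at 1.66 ± 0.31 (adjusted p = 0.00425). The labels do not say how rRNA was removed or mRNA selected, and the part of RNA selection in the rRNA result was not tested.

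**Figure D2:**
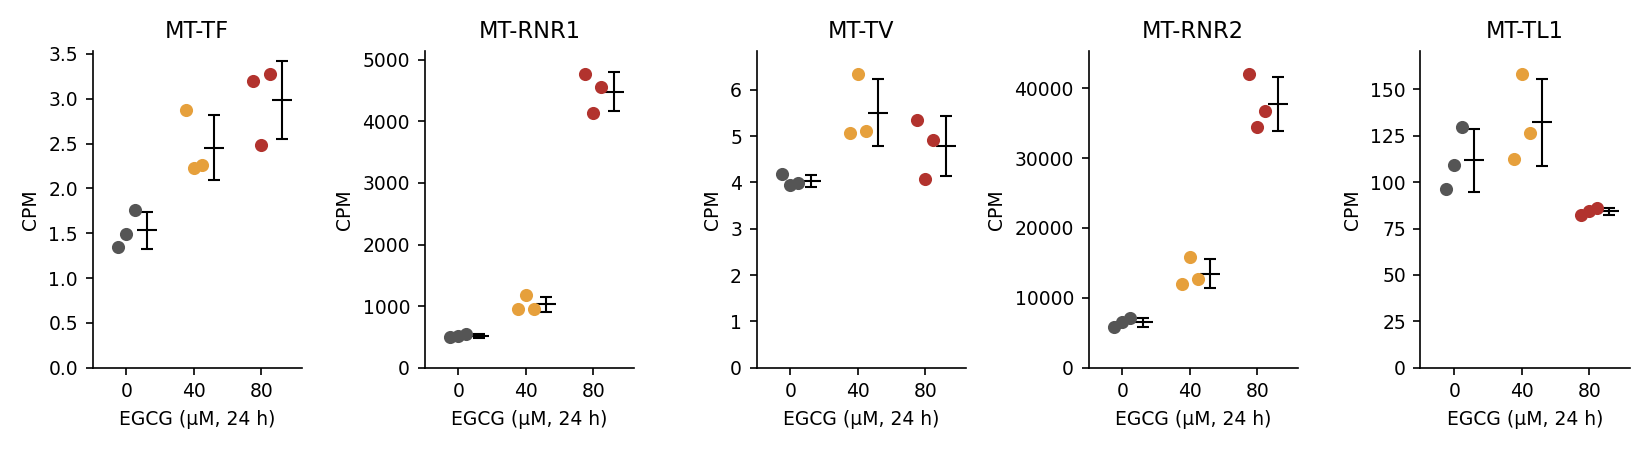
Level (CPM) of the 5 genes at the start of the heavy-strand precursor, in genome order, at 0, 40 and 80 µM EGCG. Points are libraries and bars are mean ± SD over 3. MT-RNR1 and MT-RNR2 climb with dose, at 492 to 554 CPM in the control and 4130 to 4762 CPM at 80 µM for MT-RNR1, while MT-TV and MT-TL1, between and after them, are highest at 40 µM.

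The tRNA genes interleaved with the rRNAs had smaller log2 fold changes than the rRNAs at 80 µM. MT-TF had 20, 20 and 23 counts in control libraries, 47, 31 and 31 at 40 µM, and 43, 39 and 42 at 80 µM. All treated libraries were above the control, though the counts were low. Its log2 fold change was 0.96 ± 0.24 at 80 µM (adjusted p = 0.0112, edgeR's quasi-likelihood test), a call kept in every alternative, and 0.68 ± 0.24 at 40 µM (adjusted p = 0.161). MT-TV, the valine tRNA that separates the rRNAs, had 62, 53 and 52 counts in control libraries, 83, 88 and 70 at 40 µM, and 72, 64 and 63 at 80 µM, with a log2 fold change of 0.24 ± 0.19 at 80 µM against control (adjusted p = 0.347). MT-TL1, a leucine tRNA that follows MT-RNR2, had 96.3, 109 and 130 CPM in control libraries, 113, 158 and 126 CPM at 40 µM, and 82.4, 84.7 and 86.0 CPM at 80 µM. All 80 µM libraries were below the rest. Its log2 fold change of -0.40 ± 0.14 against control missed the threshold (adjusted p = 0.0516) and passed it without control replicate 1 (0.0426), without 40 µM replicate 1 (0.0391) or without 40 µM replicate 2 (0.0222), by DESeq2 (0.0475) and in the 6 libraries compared alone (0.0326). Against 40 µM MT-TL1 was lower (log2 fold change -0.65 ± 0.14, adjusted p = 0.0102).

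**Figure D3:**
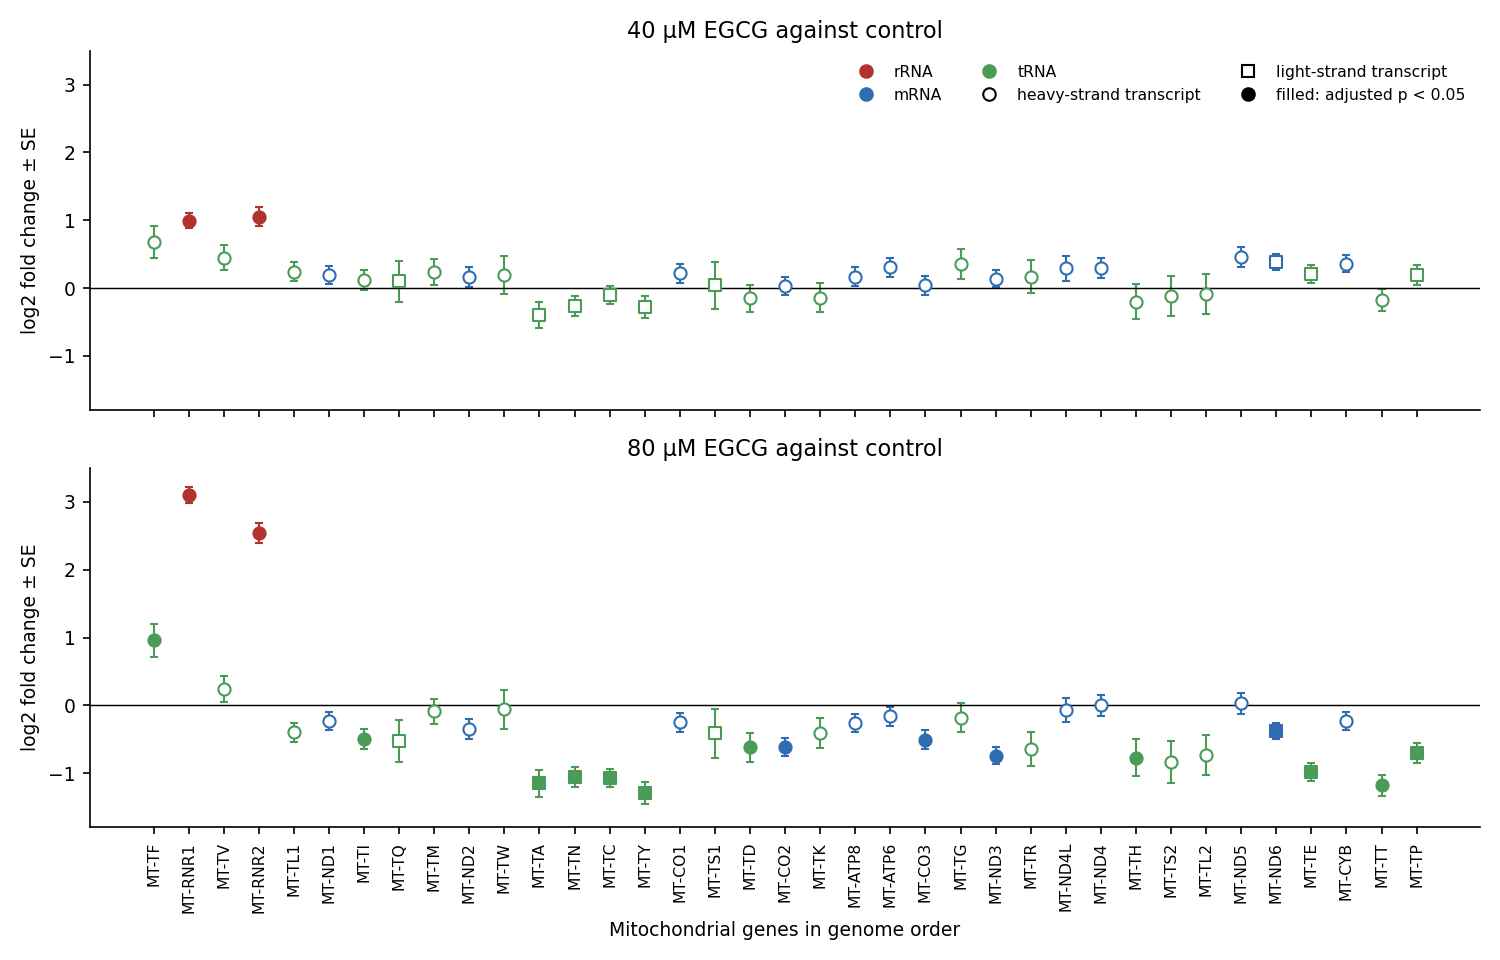
Log2 fold change ± SE of the 37 mitochondrial genes in genome order, at 40 µM (upper panel) and 80 µM (lower panel) against the control. Colour gives the RNA class, circles and squares give the strand of origin, and filled symbols passed an adjusted p of 0.05. The rRNAs stand apart at 3.10 and 2.54 in the lower panel, and the lowest values there are light-strand tRNAs and MT-TT.

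Among the 13 mRNAs, 4 fell at 80 µM against the control (background 17.5% lower and 34.9% in either direction) and 9 did not pass the test. The median log2 fold change was -0.25. The called mRNAs were 2 of the 7 for complex I and 2 of the 3 for complex IV of the respiratory chain, which together hold most of the 13. MT-CO2 and MT-CO3 encode core subunits of cytochrome c oxidase (complex IV), and MT-ND3 and MT-ND6 subunits of NADH dehydrogenase (complex I). MT-ND3 had 1099, 1153 and 1278 CPM in control libraries, 1240, 1562 and 1087 CPM at 40 µM, and 732, 658 and 721 CPM at 80 µM. All 80 µM libraries were well below the rest. Its log2 fold change was -0.74 ± 0.13 against control (adjusted p = 0.00189, edgeR's quasi-likelihood test) and -0.88 ± 0.13 against 40 µM (adjusted p = 0.00162).

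MT-CO2 had 8710, 9752 and 9957 CPM in control libraries, 8172, 11400 and 9435 CPM at 40 µM, and 6474, 5883 and 6222 CPM at 80 µM. Control and 40 µM overlapped, and 80 µM lay below both. The log2 fold change was -0.61 ± 0.13 against control (adjusted p = 0.00426) and -0.64 ± 0.13 against 40 µM (adjusted p = 0.00609). MT-CO3 had 7446, 8292 and 9392 CPM in control libraries, 6917, 10040 and 8936 CPM at 40 µM, and 5717, 5597 and 6277 CPM at 80 µM. Its log2 fold change against control was -0.51 ± 0.14 (adjusted p = 0.019, and 0.055 without 80 µM replicate 1 or 0.0713 without 80 µM replicate 2). MT-ND6, the only mRNA of the light strand, had 1538, 1582 and 1560 CPM in control libraries, 1746, 2364 and 1961 CPM at 40 µM, and 1073, 1248 and 1269 CPM at 80 µM. Each group stood apart, 40 µM highest and 80 µM lowest. At 80 µM against control its log2 fold change was -0.38 ± 0.12 (adjusted p = 0.033). That call was lost when any of these libraries was left out: control replicate 1 (0.0781) or 2 (0.081), 40 µM replicate 3 (0.0507), or 80 µM replicate 1 (0.11), 2 (0.0717) or 3 (0.0632).

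The other 9 mRNAs had values at 80 µM against the control that did not pass the test. Of the complex I subunits, MT-ND2 had a log2 fold change of -0.35 ± 0.15 (adjusted p = 0.0918, edgeR's quasi-likelihood test). It passed without 40 µM replicate 1 (0.0367) or 2 (0.0316) and in the 6 libraries alone (0.0354). MT-ND1 had -0.23 ± 0.13, MT-ND4L -0.07 ± 0.18, MT-ND4 -0.00 ± 0.15 and MT-ND5 0.03 ± 0.15. MT-CO1, the catalytic core of complex IV, had -0.25 ± 0.14, and MT-CYB, the cytochrome b of complex III, had -0.23 ± 0.13. The ATP synthase subunits MT-ATP8 and MT-ATP6 had -0.26 ± 0.14 and -0.16 ± 0.14. Apart from MT-ND2, their adjusted p-values lay between 0.182 and 0.983. MT-ND4 shows how close the groups were, with 9701, 9715 and 9798 CPM at 80 µM against 9170, 9716 and 10430 CPM in the control.

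At 40 µM all 13 mRNAs had positive log2 fold changes against the control, from 0.03 for MT-CO2 to 0.46 for MT-ND5. Of the 13, 0 passed edgeR's quasi-likelihood test (background 2.30%). By unadjusted p under 0.05 the count was 4, and DESeq2 and limma-voom also called 0. The 40 µM libraries were uneven: in replicate 2 MT-CO1 reached 30090 CPM, against 20840 and 23360 CPM in the other 40 µM libraries. Groups overlapped for 12 of the 13 at 40 µM, the exception being MT-ND6. The share of all genes whose groups overlapped was not counted.

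At 80 µM against 40 µM 9 of the 13 mRNAs were lower (background 12.1%). Their log2 fold changes were -0.42 for MT-ND1, -0.51 for MT-ND2, -0.48 for MT-CO1, -0.64 for MT-CO2 and -0.48 for MT-ATP6. For MT-CO3 the value was -0.56, for MT-ND3 -0.88, for MT-ND6 -0.76 and for MT-CYB -0.60. The calls for MT-CO2, MT-ND3, MT-ND6 and MT-CYB held in every alternative. For the other 5 they depended on the libraries. Without 80 µM replicate 1 the adjusted p was 0.102 for MT-ND1, 0.0593 for MT-ND2, 0.0607 for MT-CO1, 0.0808 for MT-ATP6 and 0.0561 for MT-CO3. Without 80 µM replicate 2 the values in the same order were 0.126, 0.108, 0.122, 0.108 and 0.0782. Without 80 µM replicate 3 they were 0.105 for MT-ND1, 0.107 for MT-ND2, 0.105 for MT-CO1 and 0.0868 for MT-ATP6. Without 40 µM replicate 2 they were 0.108 for MT-ND1, 0.0894 for MT-ND2, 0.079 for MT-CO1, 0.0744 for MT-ATP6 and 0.0527 for MT-CO3. Without 40 µM replicate 3 they were 0.0758 for MT-ND1, 0.0735 for MT-ND2, 0.0582 for MT-CO1 and 0.057 for MT-CO3. Leaving out control replicate 1 gave 0.0536 for MT-ND1, and leaving out control replicate 2 gave 0.062 for MT-ND1 and 0.0511 for MT-CO1. Conversely, MT-ATP8 (main adjusted p = 0.0508) passed without control replicate 1 (0.0403) or 3 (0.0152). It also passed by DESeq2 (0.0384), by limma-voom (0.0492) and in the 6 libraries alone (0.0204). MT-ND4 passed without 40 µM replicate 1 (0.0448), and MT-ND5 without control replicate 3 (0.0434) or 40 µM replicate 1 (0.0272).

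**Figure D4:**
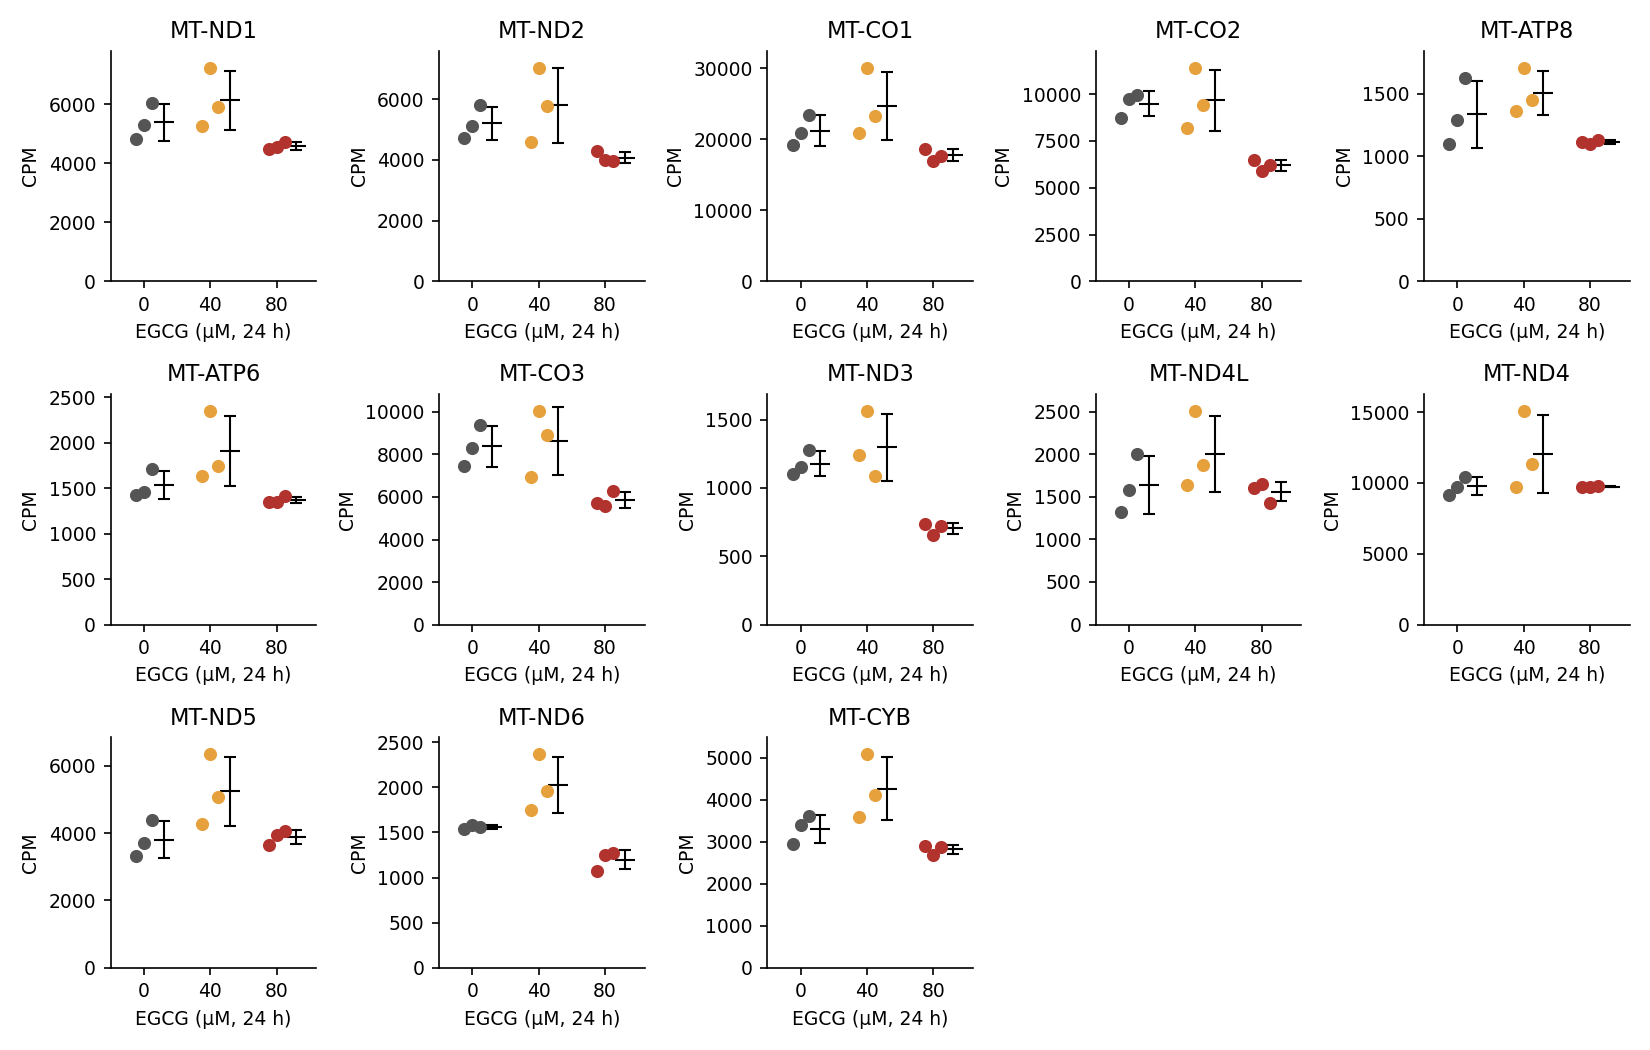
Level (CPM) of the 13 mitochondrial mRNAs in genome order at 0, 40 and 80 µM EGCG. Points are libraries and bars are mean ± SD over 3. MT-CO2 and MT-ND3 lie lowest at 80 µM, at 5883 to 6474 and 658 to 732 CPM, while for MT-ND4 and MT-ND5 the 80 µM libraries lie within the control range.

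Per kilobase, MT-CO2 and MT-CO1 led the 37 genes in control libraries, with 13850 ± 978 and 13740 ± 1419 CPM per kb, a difference smaller than their spread. MT-CO3 followed with 10680 ± 1244 and MT-ND4 with 7091 ± 458 CPM per kb. This order too is of counts over annotated spans and not of RNA amounts across classes. At 80 µM MT-RNR2 was ahead of MT-CO1 (11550 ± 553), MT-CO2 (9054 ± 434), MT-CO3 (7479 ± 463) and MT-ND4 (7067 ± 38.1 CPM per kb). Across the 12 heavy-strand mRNAs, the log2 fold change at 80 µM against control had Spearman's rho = 0.41 and Pearson's r = 0.23 with the position of the gene's start. At 40 µM against control rho was 0.57 and r was 0.55, and at 80 µM against 40 µM they were 0.06 and -0.11. With gene length, rho and r were 0.39 and 0.47 at 80 µM against control. They were 0.45 and 0.5 at 40 µM against control, and 0.18 and 0.32 at 80 µM against 40 µM. These are descriptions over 12 genes that share a precursor and the libraries, and each pair of comparisons shares a dose group.

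The tRNA genes as a group were lower at 80 µM. Of 22, 10 fell (background 17.5%), 1 (MT-TF) rose (background 17.4%) and 11 did not pass the test. Counts of a tRNA gene here are reads over its annotated span, and mature tRNAs and uncut precursors were not separated. The 8 light-strand tRNAs had a median log2 fold change of -1.02, with 6 of 8 lower (background 17.5%). The 14 heavy-strand tRNAs had a median of -0.45, with 4 of 14 lower (background 17.5%). The difference between the strands was not tested gene by gene. For all 8 light-strand tRNAs every 80 µM library was below every control library, as for 26 of all 37 mitochondrial genes. How often this held over all genes tested was not counted.

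The cluster of MT-TA, MT-TN, MT-TC and MT-TY, shown above, held most tRNA counts. MT-TY had 203, 216 and 276 CPM in control libraries, 233, 168 and 171 CPM at 40 µM, and 99.95, 86.0 and 98.1 CPM at 80 µM. In 80 µM libraries it was far below all others. Its log2 fold change was -1.29 ± 0.16 against control (adjusted p = 0.000208, edgeR's quasi-likelihood test), the largest fall among the 37 genes. MT-TA had 113, 117 and 149 CPM in control libraries, 126, 70.0 and 91.7 CPM at 40 µM, and 58.7, 51.5 and 60.9 CPM at 80 µM. On the log2 scale the change was -1.15 ± 0.20 (adjusted p = 0.00147). In MT-TA the 40 µM libraries bridged the 2 other groups, with replicate 1 within the control range and replicate 2 the lowest. MT-TC fell by 1.07 ± 0.13 on the log2 scale (adjusted p = 0.000221) and MT-TN fell by 1.06 ± 0.15 (adjusted p = 0.000466).

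MT-TE lies outside that cluster, also on the light strand. It had 60.1, 60.2 and 54.3 CPM in control libraries and 64.0, 76.2 and 61.7 CPM at 40 µM. At 80 µM it had 25.0, 32.2 and 31.0 CPM. The 40 µM libraries were the highest and the 80 µM libraries the lowest. The log2 fold change was -0.98 ± 0.13 at 80 µM against control (adjusted p = 0.000374) and -1.19 ± 0.13 against 40 µM (adjusted p = 0.000466). MT-TP, for proline, fell by 0.70 ± 0.15 on the log2 scale at 80 µM against control (adjusted p = 0.00512). The glutamine and serine tRNAs MT-TQ and MT-TS1, with 9 to 35 counts per library, had log2 fold changes of -0.52 ± 0.31 and -0.41 ± 0.36 that did not pass.

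**Figure D5:**
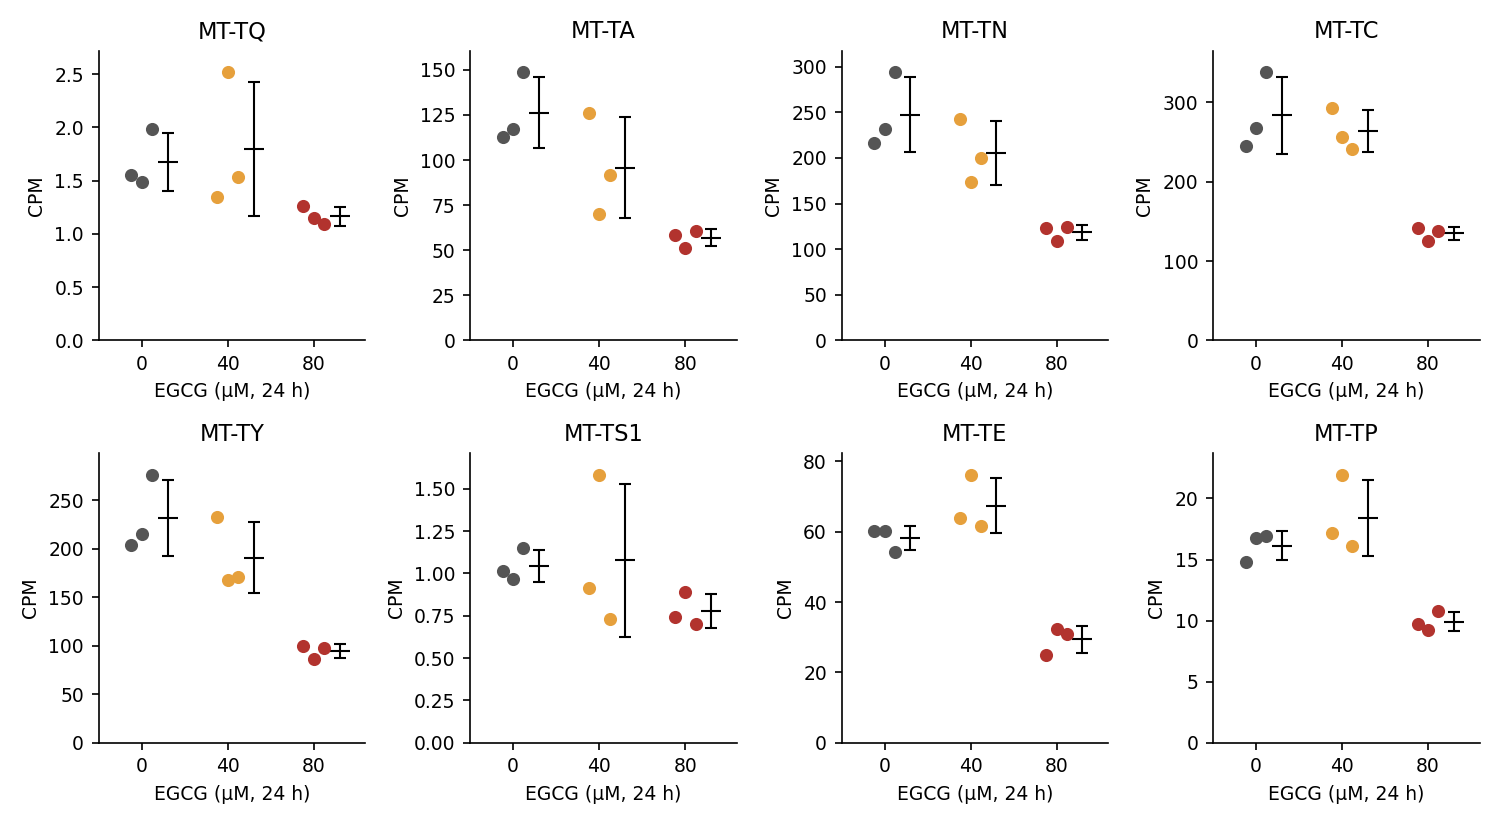
Level (CPM) of the 8 light-strand tRNA genes in genome order at 0, 40 and 80 µM EGCG. Points are libraries and bars are mean ± SD over 3. In each panel the 80 µM libraries lie below the control libraries, for MT-TY at 86.0 to 99.95 CPM against 203 to 276 CPM.

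The counts of light-strand tRNAs per mRNA count were 0.0128, 0.0125 and 0.0139 in control libraries, 0.0138, 0.00750 and 0.00955 at 40 µM, and 0.00745, 0.00700 and 0.00754 at 80 µM. The 80 µM libraries were below the control libraries, and 40 µM spanned nearly the whole range. The exact permutation p over the 3 doses was 0.0357 (adjusted 0.0417). It was 0.0714, 0.0857 and 0.0679 without 80 µM replicate 1, 2 or 3, 0.0571 without 40 µM replicate 3, and 0.0571, 0.0571 and 0.0714 without control replicate 1, 2 or 3. MT-ND6 counts per count of the 12 heavy-strand mRNAs were 0.0217 ± 0.00203 in control libraries, 0.0244 ± 0.000835 at 40 µM and 0.0201 ± 0.00207 at 80 µM. Over the 3 doses its exact permutation p was 0.0893 (adjusted 0.0893), and 0.0179 without control replicate 3.

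On the heavy strand, MT-TT had 16.7, 18.2 and 16.8 CPM in control libraries, 13.8, 18.9 and 13.1 CPM at 40 µM, and 7.21, 7.39 and 8.18 CPM at 80 µM. Every 80 µM library was below all others. The log2 fold change was -1.18 ± 0.16 against control (adjusted p = 0.000403) and -1.0 ± 0.16 against 40 µM (adjusted p = 0.00227). The calls for MT-TI, MT-TD and MT-TH, also on the heavy strand, were lost under several alternatives. MT-TI, for isoleucine, had a log2 fold change of -0.50 ± 0.15 against control (adjusted p = 0.0269). That call was lost without control replicate 1 (0.0653) or 2 (0.067), without 80 µM replicate 1 (0.0686), 2 (0.0748) or 3 (0.0775), and without the low-count filter (0.0642). MT-TD, for aspartate, had -0.62 ± 0.21 (adjusted p = 0.0416). It was not called on leaving out control replicate 1 (0.0609), 2 (0.0759) or 3 (0.102), 40 µM replicate 3 (0.058), or 80 µM replicate 1 (0.0823), 2 (0.0847) or 3 (0.125), nor without the filter (0.0883) or by DESeq2 (0.0826).

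MT-TH (histidine), MT-TS2 (serine) and MT-TL2 (leucine) lie side by side without a gap and had nearly equal counts in each library, within 2.20 to 15.3% of the highest of the 3. MT-TH had 106, 90 and 68 counts in control libraries, 130, 61 and 58 at 40 µM, and 43, 68 and 46 at 80 µM. Control replicate 3 and 80 µM replicate 2 both had 68 counts. Scaled to library size the 80 µM libraries were still the lower, and 40 µM spanned both groups. The log2 fold changes at 80 µM against control were -0.77 ± 0.27 for MT-TH (adjusted p = 0.0481), -0.83 ± 0.31 for MT-TS2 (0.0595) and -0.73 ± 0.30 for MT-TL2 (0.0868). The MT-TH call was lost without control replicate 1 (0.144) or 2 (0.111), without 80 µM replicate 1 (0.135), 2 (0.0671) or 3 (0.121), without the filter (0.0826), with RLE scaling (0.0508), with scaling that left out the mitochondrial genes (0.0525) and by limma-voom (0.0527). MT-TS2 passed without 40 µM replicate 1 (0.0136) or 3 (0.0455), by DESeq2 (0.0452) and in the 6 libraries alone (0.0173). MT-TL2 passed without 40 µM replicate 1 (0.0377) and in the 6 libraries alone (0.0352). The remaining heavy-strand tRNAs, MT-TM, MT-TW, MT-TK, MT-TG and MT-TR, had 25 to 134 counts per library and log2 fold changes of -0.65 to -0.06, none past the threshold.

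Between the treated groups, 10 of 22 tRNAs were lower at 80 µM than at 40 µM and 0 were higher by edgeR's quasi-likelihood test. The background was 12.1% lower and 10.9% higher. DESeq2 and limma-voom gave the same numbers. By edgeR 13 were lower and 0 higher at an unadjusted p under 0.05. Besides MT-TE, MT-TT and MT-TL1 the 10 called by edgeR were MT-TY (-1.01 ± 0.16), MT-TC (-0.97 ± 0.13), MT-TP (-0.89 ± 0.15), MT-TR (-0.82 ± 0.25), MT-TN (-0.79 ± 0.15), MT-TA (-0.75 ± 0.20) and MT-TI (-0.62 ± 0.15). The MT-TI call (adjusted p = 0.0155) was lost without 40 µM replicate 2 (0.053) or 80 µM replicate 2 (0.0548) or 3 (0.0543). The MT-TA call (adjusted p = 0.0211) was lost without 40 µM replicate 1 (0.0608) or 80 µM replicate 1 (0.0506), 2 (0.0866) or 3 (0.0521). The MT-TR call (adjusted p = 0.0366) was lost without control libraries 1 (0.0562) or 2 (0.0504), 40 µM replicate 1 (0.114) or 2 (0.0825), or 80 µM replicate 1 (0.104), 2 (0.0874) or 3 (0.0567), without the filter (0.0675) and in the 6 libraries alone (0.0634). At 40 µM against control 0 of 22 tRNAs passed (background 2.30%), with 2 at an unadjusted p under 0.05 by edgeR. DESeq2 and limma-voom also called 0.

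Some mitochondrial genes share reads with other genes. MT-ATP8 and MT-ATP6 overlap by 46 bases (chrM:8527-8572), and MT-ND4L and MT-ND4 by 7 bases (chrM:10760-10766), and the sources used here do not state how shared reads were split. The overlap of the ATP synthase genes is shown with the start codon of MT-ATP6 in capitals.
MT-ATP8/MT-ATP6 overlap: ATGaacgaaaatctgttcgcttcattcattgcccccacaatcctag
Whether counting used the strand is not stated either, and without strand the reads of a gene and of a transcript antisense to it cannot be told apart. That touches the light-strand genes most, since the heavy-strand precursor covers their positions.

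The nuclear genome carries old copies of mitochondrial DNA, and 116 of 417 listed copies had counts. MTATP6P1 (chr1:633696-634376, GRCh38) matches MT-ATP6 at 98.5% of bases, and the copies of MT-ATP6 took 40.8 to 45.05% of the joint counts of gene and copies. For MT-ND2 the copies took 16.9 to 20.05%, with MTND2P28 at 98.4% identity. For MT-CO1 they took 1.39 to 2.04%, for MT-ND4 0.885 to 1.25%, and for MT-RNR2 0.186 to 0.214%. The summed counts of the MT-RNR2 copies were 185, 182 and 190 in control libraries, 408, 473 and 323 at 40 µM, and 1100, 1047 and 975 at 80 µM. Levels of MT-ATP6 and MT-ND2 are therefore uncertain. With the copies' counts added to their genes the number of called genes was 17 at 80 µM against control, 2 at 40 µM against control and 20 at 80 µM against 40 µM, where MT-ATP6 was no longer called (adjusted p = 0.0519).

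The nuclear genes that make, process and use mitochondrial RNA were more often called lower than higher at 80 µM. Of 93 listed genes, all tested, 36 fell (38.7%, against a background of 17.5%) and 4 rose (4.30%, background 17.4%), with a median log2 fold change of -0.33. At 80 µM against 40 µM 25 were lower (background 12.1%) and 0 higher (background 10.9%) by edgeR's quasi-likelihood test, with a median of -0.30. By unadjusted p under 0.05 there were 2 higher, and DESeq2 and limma-voom each called 1 higher, MTERF4. At 40 µM against control 0 of 93 passed (background 2.30%). There, 20 had an unadjusted p under 0.05, limma-voom called 0 and DESeq2 called 4, all lower (GTPBP3, PUS1, ATAD3B and TUFM). The count at 80 µM against 40 µM was 12 without 80 µM replicate 2 and 16 without 80 µM replicate 3, and the count at 40 µM was 2, PUS1 (0.0389) and ATAD3B (0.0422), without 40 µM replicate 1.

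In the transcription list 5 of 8 fell at 80 µM (background 17.5%). POLRMT, the mitochondrial RNA polymerase, had 201 ± 17.2 CPM at 80 µM against 312 ± 37.5 CPM in the control (SD, n = 3 each), a log2 fold change of -0.63 ± 0.12 (adjusted p = 0.00252, edgeR's quasi-likelihood test). TFAM, which packages mitochondrial DNA and helps start transcription, had -0.47 ± 0.12 (adjusted p = 0.0143), and TFB2M, which opens the promoter, had -0.42 ± 0.12 (adjusted p = 0.0184). MRPL12, a protein of the large ribosomal subunit that also binds the polymerase, fell most, by 1.29 ± 0.16 (adjusted p = 0.000215), and MTERF2, of the termination factor family, fell by 0.83 ± 0.20. TEFM, the elongation factor, had -0.38 ± 0.17 and did not pass (adjusted p = 0.11). The TFAM call was lost without control replicate 1 (0.0604), control replicate 2 (0.0557) or 80 µM replicate 3 (0.0717). That of TFB2M was lost without control replicate 1 (0.0879), 80 µM replicate 2 (0.0562) or 80 µM replicate 3 (0.0912).

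In the cleavage and processing list 5 of 13 fell at 80 µM against control (background 17.5%). TRMT10C and HSD17B10 are subunits of mitochondrial RNase P and had log2 fold changes of -0.51 ± 0.14 and -0.48 ± 0.14, with adjusted p-values of 0.0179 and 0.02. PRORP, its nuclease subunit, had -0.33 ± 0.19 (adjusted p = 0.2). ELAC2, the RNase Z that cuts the other end of tRNAs, had -0.39 ± 0.11 (adjusted p = 0.0176), and TBRG4, of the FASTK family of RNA-binding proteins, had -0.56 ± 0.11 (adjusted p = 0.0026). FASTKD1, of the same family, had -0.53 ± 0.15 (adjusted p = 0.0208, and 0.0751 without control replicate 2, 0.0681 or 0.0908 without 80 µM replicate 2 or 3). TRMT10C missed the threshold when control replicate 1 (0.0603), control replicate 2 (0.0698), 80 µM replicate 2 (0.0504) or 80 µM replicate 3 (0.075) was left out. HSD17B10 missed it when control replicate 1 (0.0519) or 3 (0.061), or 80 µM replicate 1 (0.0575) or 2 (0.0794), was left out. ELAC2 missed without control replicate 1 (0.0575) or 80 µM replicate 1 (0.0591), 2 (0.0599) or 3 (0.0533).

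Calls among stability and decay genes were few. In the list for mRNA stability and polyadenylation 1 of 6 fell and 1 rose, each a share near the background of 17.5% lower and 17.4% higher: PDE12, which trims poly(A) tails, fell by 0.52 ± 0.10 (adjusted p = 0.00209), and ANGEL2, a phosphatase acting on RNA ends, rose by 0.53 ± 0.12 (adjusted p = 0.00605). LRPPRC and SLIRP, partners that stabilise mitochondrial mRNAs, had -0.11 ± 0.14 and -0.56 ± 0.22 and did not pass (adjusted p = 0.579 and 0.0731). SLIRP passed without 40 µM replicate 3 (0.0378) and in the 6 libraries alone (0.0392). The poly(A) polymerase MTPAP did not pass, at -0.28 ± 0.13. Of 5 decay genes 1 fell, a share near the background of 17.5%. That gene was PNPT1, the exonuclease of the mitochondrial degradosome. PNPT1 had 46.2 ± 3.18 CPM at 80 µM against 77.8 ± 11.6 CPM in the control (SD, n = 3 each). Its log2 fold change was -0.75 ± 0.14 (adjusted p = 0.00197, edgeR's quasi-likelihood test). Its helicase partner SUPV3L1 had 0.18 ± 0.10 (adjusted p = 0.198).

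Of the genes that modify rRNA and assemble the ribosome, 9 of 19 fell and 1 rose (background 17.5% lower and 17.4% higher). Without 80 µM replicate 2 the calls of TFB1M (0.0972), MRM1 (0.0562), MRM3 (0.0841) and RPUSD3 (0.0575) were lost. The TFB1M call (adjusted p = 0.0458, edgeR's quasi-likelihood test) was also lost by DESeq2 (0.0896) and limma-voom (0.053). TRMT61B, a methyltransferase for mitochondrial RNA, had a log2 fold change of -0.95 ± 0.12, C1QBP, a matrix protein needed for the ribosome, -0.83 ± 0.14, DDX28, a helicase of large-subunit assembly, -0.71 ± 0.12, and RPUSD4, a pseudouridine synthase, -0.53 ± 0.10. The gene that rose, NSUN4, named after its value was seen, encodes a methyltransferase of the small-subunit rRNA that acts in ribosome assembly with MTERF4, and had 1.02 ± 0.26 (adjusted p = 0.0109). Of the tRNA modification genes 8 of 16 fell (background 17.5%). Among them were GTPBP3 (-0.90 ± 0.11) and TRMU (-0.58 ± 0.10), which modify the wobble base. PUS1 (-0.87 ± 0.12) and NSUN2 (-0.54 ± 0.09), which also act outside mitochondria, were among them too. The calls of QTRT1 (0.0844) and TRIT1 (0.0831) in this list were lost without 80 µM replicate 2. Of the replication and nucleoid genes 6 of 17 fell and 1 rose (background 17.5% lower and 17.4% higher). The one that rose was RRM2B, a ribonucleotide reductase subunit named after its value was seen (0.64 ± 0.16, adjusted p = 0.0115). Those that fell included ATAD3A at -1.09 ± 0.15, ATAD3B at -0.91 ± 0.12, TOP1MT at -0.68 ± 0.16 and SAMHD1, a dNTPase, at -0.58 ± 0.14. TFAM, with its losses given above, and MGME1 also fell, and the MGME1 call was lost without 80 µM replicate 2 (0.0511). ATAD3A and ATAD3B are near-identical neighbours, so their counts may be split unevenly. Of 12 translation factors 2 fell, a share near the background of 17.5%, and the median log2 fold change of the list was -0.09. Those that fell were the elongation factors GFM1 (-0.76 ± 0.10) and TUFM (-0.75 ± 0.10), and MTRFR, a release factor, rose by 0.71 ± 0.21 (adjusted p = 0.0248). The MTRFR call was lost without control replicate 2 (0.0785) or 3 (0.0813), without 80 µM replicate 1 (0.0774) or 2 (0.0838), and without the filter (0.0558).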

How the data were processed

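RNA was measured by sequencing in 9 MM.1S libraries, 3 per dose. One deposited table held gene counts and FPKM values that the authors made from the reads. Per the submitters' processing notes, CASAVA 1.8, HISAT2, SAMtools 1.3.1, edgeR and GRCh38 were used, with no roles given. Per the labels' protocols, total RNA was taken on columns and made into Illumina libraries. The sources used here name no counter, strand setting or RNA selection. The deposited FPKM values served only for 1 alternative ratio and to check gene lengths, which equalled those of GENCODE 29 for all 37 genes.

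The counts were tested with edgeR 4.0.16 in R 4.3.3 (quasi-likelihood F test, TMM scaling, filterByExpr by group, dose as the only factor, all 9 libraries, 6 residual degrees of freedom), with Benjamini-Hochberg adjustment over 15982 genes and calls at an adjusted p under 0.05. SE was taken as the absolute log2 fold change over the root of the F statistic. Shares are percentages of all counts in a library. Shares and ratios were compared with exact permutation tests on the sum of squares between doses (1680 arrangements, 7 values, Python 3.11.15 with SciPy 1.17.1). The fits were tested on simulated counts. Symbols came from the gene names table, which matched 60419 of 60675 IDs, and sequences from GENCODE 29 transcripts.

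Alternatives were RLE scaling, scaling without the mitochondrial genes, no low-count filter, DESeq2 1.42.0, limma-voom (limma 3.58.1), the 6 libraries compared alone, a replicate block and leaving out each library. Adding the nuclear copies, the plain counts of other genes as a denominator, and leaving out libraries for the 3 ratios within the mitochondrial genome, were chosen after seeing the data. Replicate numbers were not used to pair libraries: deviations from the group means of same-numbered libraries correlated at -0.139 to 0.051. With 3 libraries per group such correlations cannot exclude a pairing. All rRNAs, mRNAs and tRNAs with a mean of at least 10 counts (all 22) are named. From each nuclear list the called genes with the 4 smallest p-values at 80 µM are named, plus a fixed set of transcription, stability, decay and processing genes. Further called genes were named after their values were seen, among them genes whose calls an alternative ended. The members and lists were chosen with earlier results of these data known.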

Additional observations from a re-analysis of the deposited data

How the results depend on the processing

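No call reversed under any of the alternatives, and 57 of 3470 gene values changed sign without being called under either setting. At 80 µM against control 12 of the 17 mitochondrial calls held in every alternative, at 40 µM against control both, and at 80 µM against 40 µM 13 of 21. Leaving out 1 library gave 12 to 21 mitochondrial calls at 80 µM against control, 2 at 40 µM and 13 to 23 at 80 µM against 40 µM. For the nuclear list it gave 30 to 42, 0 to 2 and 12 to 30 calls in the same comparisons, where all 9 libraries gave 40, 0 and 25. By DESeq2 the nuclear list had 4 calls at 40 µM. The mRNA share at 80 µM against control was -0.25 on the log2 scale, and -0.30 to -0.22 when 1 library was left out. It was -0.21 with plain counts of the other genes as the denominator. With that denominator the exact permutation test over all 3 doses gave p = 0.0536. The cause of these changes was not tested. The log2 rRNA share ranged over 2.54 to 2.66, the tRNA share over -1.01 to -0.89 and the rRNA to mRNA ratio over 2.79 to 2.90 when 1 library was left out. The labels do not say whether the replicate numbers pair the libraries. With a replicate block 15 mitochondrial genes were called at 80 µM against control, 2 at 40 µM and 16 at 80 µM against 40 µM. The block ended the calls of MT-TD (0.0648) and MT-TH (0.0585) at 80 µM against control, and of MT-ND1 (0.0603), MT-ND2 (0.0562), MT-CO1 (0.069), MT-ATP6 (0.0544) and MT-TR (0.0738) at 80 µM against 40 µM (adjusted p by edgeR). Over all genes, calls at 40 µM against control numbered 368, and 847 by DESeq2, 228 without the low-count filter, 183 with the replicate block and 153 in the 6 libraries alone. Depth limits MT-TS1, MT-TQ, MT-TF, MT-TK and MT-TW most, with 9 to 47 counts per library.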
